A study of Mus musculus with 12 samples.

Results

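After 96 h in difluoromethylornithine (DFMO), NIH3T3 fibroblasts were compared with untreated cells of the same line, and the arrays of these groups, 5 of the 12 in the series, are described here. NIH3T3 is an established mouse fibroblast line, and the labels give the medium (DMEM with fetal calf serum and antibiotics) and no genotype or clone. The 2 arrays titled as treated for 96 h were set against the 3 titled as untreated controls. All cells were sorted for G1 before RNA was extracted, so the groups share that gate, which reads DNA content and does not separate cycling G1 cells from resting ones. The drug was given at 1 mM, 24 h after seeding. The untreated cells stand for 0 h, so hours in culture and hours in drug cannot be told apart. The arrays of 12, 24 and 48 h entered the fit that gives the spread, and the 48 h arrays serve to show when a change appeared. In RNA from a population, fewer cells of a kind and less RNA per cell cannot be told apart.

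Polyamines (putrescine, spermidine and spermine) are small cations that bind RNA and DNA and are needed for translation and proliferation. Ornithine decarboxylase makes putrescine from ornithine and is the enzyme that DFMO blocks irreversibly. Spermidine also supplies the hypusine residue of the translation factor eIF5A. Cells that lack polyamines stop dividing, and the question of the comparison is which transcripts differ in the G1 fraction after the longest exposure.

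Of 19938 genes tested, 4372 were called at 96 h (21.9%; limma adjusted p under 0.05), 2360 higher (11.8%) and 2012 lower (10.1%). The falls reached further than the rises. At least 4-fold, 181 genes were lower and 32 higher, and at least 8-fold, 66 were lower and 9 higher. None of the 4372 called genes had overlapping arrays between the groups. Over all genes tested, 8853 (44.4%) had no overlap either, so separation of 3 arrays from 2 is weak evidence alone. The median change over all genes was 0.00 on the log2 scale. Against 48 h, 1723 genes differed (8.64%), 868 higher and 855 lower at 96 h, which is the direct test of a change between these times (4.35% and 4.29%). At 48 h 1160 genes differed from untreated cells (5.82%), 528 higher (2.65%) and 632 lower (3.17%). The count between 96 h and 48 h fell to between 748 and 1060 when a 48 h or a 96 h array was left out, and the count of genes higher at 96 h than in untreated cells fell to 1560 without 96 h replicate 1.

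**Figure D1:**
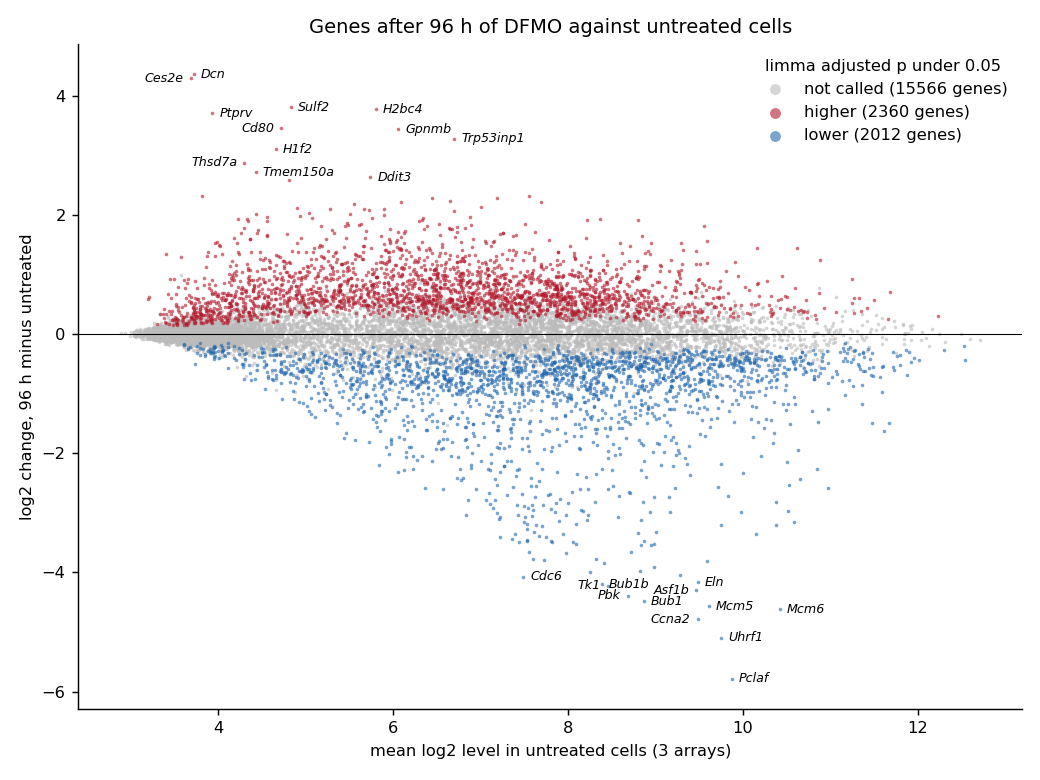
Each point is 1 of 19938 genes. The x axis is the mean log2 level on the 3 untreated arrays and the y axis the log2 change at 96 h, with called genes in red (2360 higher) and blue (2012 lower). The 12 largest rises and the 12 largest falls are labelled. The falls reach -5.78 (Pclaf) and the rises 4.37 (Dcn).

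Array medians lay between 4.13 and 4.2, the untreated arrays correlated with each other across genes at r of 0.995 to 0.998, and the 2 arrays at 96 h at 0.996. Untreated and 96 h arrays correlated at 0.969 to 0.972. Of 14 fibroblast markers, Vim, Col1a1, Fn1 and Cd34 all had untreated means above 11, and Dpt was near the floor (3.16). Markers of leukocytes, epithelium, endothelium, muscle, neurons and skeleton (36 genes) had a mean level between 4.01 and 4.03 on the untreated arrays and of 4.02 and 4.01 at 96 h. The defining markers Ptprc, Epcam, Pecam1 and Myod1 stayed between 3.35 and 3.54 in both groups. Sox9 (untreated mean 9.16) and Krt14 (8.83) were well above that floor in these fibroblasts. In that list of 36 genes 3 were higher (8.33%) and 2 lower (5.56%), below the 11.8% and 10.1% of all genes. Lyz2, lysozyme, had log2 levels of 4.36, 4.16 and 4.51 in untreated cells and of 6.01 and 6.49 at 96 h, and Krt14, a keratin, went the other way, from 8.56, 8.76 and 9.17 to 7.32 and 6.70.

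The sequences before the starts of genes in 6 of the gene roles described below are shown first. Genes of DNA replication are known targets of E2F factors, mitotic genes of the DREAM and B-MYB complexes at CHR and CCAAT elements, sterol genes of SREBP factors, and amino acid genes of ATF4. The words searched on both strands were TTTGGCGC, TTTCCCGC, TTTGCCGC and TTTCGCGC for E2F, TTTGAA and TTCGAA for CHR, CCAAT, TCACNCCAC for the sterol element and TGATGNAA for the amino acid response element. Neighbouring E2F matches can overlap. Each line gives the 150 bases before the RefSeq start (GRCm38.p6, 5′ to 3′ on the gene's strand), for the called gene of its role (licensing, fork, mitotic cyclins and kinases, mevalonate, ATF4 factors, amino acid synthesis) with the largest change whose bases there hold the word. Genes of a chromosome left out of the printing were passed over, so the largest change of a role may lie there. Capitals mark the word searched for that role, and in Cdk1 also CCAAT.
Mcm6: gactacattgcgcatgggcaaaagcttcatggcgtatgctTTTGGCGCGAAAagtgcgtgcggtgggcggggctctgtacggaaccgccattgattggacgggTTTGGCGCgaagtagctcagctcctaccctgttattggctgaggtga
Rfc3: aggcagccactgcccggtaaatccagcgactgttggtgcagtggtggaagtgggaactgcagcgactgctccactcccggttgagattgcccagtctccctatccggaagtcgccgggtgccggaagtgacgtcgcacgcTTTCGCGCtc
Cdk1: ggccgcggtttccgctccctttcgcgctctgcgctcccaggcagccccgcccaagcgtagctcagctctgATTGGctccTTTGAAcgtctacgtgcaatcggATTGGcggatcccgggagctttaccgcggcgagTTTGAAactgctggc
Hmgcs1: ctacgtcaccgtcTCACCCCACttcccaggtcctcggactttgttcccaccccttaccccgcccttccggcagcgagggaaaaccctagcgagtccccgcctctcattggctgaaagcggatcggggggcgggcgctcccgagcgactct
Nupr1: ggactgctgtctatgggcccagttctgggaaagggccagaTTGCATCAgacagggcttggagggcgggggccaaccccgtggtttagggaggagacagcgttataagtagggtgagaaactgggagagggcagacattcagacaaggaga
Asns: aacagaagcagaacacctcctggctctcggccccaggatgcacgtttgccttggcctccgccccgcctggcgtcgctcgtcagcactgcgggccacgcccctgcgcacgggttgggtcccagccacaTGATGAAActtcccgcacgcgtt

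The windows lie at chr1:128359706-128359855 (Mcm6, minus strand), chr5:151651209-151651358 (Rfc3, minus), chr10:69352913-69353062 (Cdk1, minus), chr13:119690201-119690350 (Hmgcs1, plus), chr7:126625471-126625620 (Nupr1, minus) and chr6:7693210-7693359 (Asns, minus). Mcm6 held 3 E2F matches, and Cdk1 held 2 CHR words, each with a CCAAT word upstream of it. Over windows from 250 bases before to 50 after the start, an E2F word was found in 40.9% of 22 promoters of origin licensing genes and 34.6% of 26 promoters of fork genes, but in 0 of 11 promoters of deoxynucleotide synthesis genes, against 2.99% of 19177 promoters of all genes tested. A CHR word was found in 62.2% of 90 promoters of mitosis genes against 16.5%, and CCAAT in 66.7% against 37.4%. The CCAAT share was not particular to mitosis, since it was also 66.7% in the 33 promoters of the cholesterol list. In the 59 promoters of the replication list it was 54.2%. The sterol word was in 1 of 7 promoters of the mevalonate genes (14.3%), in 0 of 11 promoters after squalene and in 0 of 15 of regulation, uptake and export, which is 3.03% of the 33 promoters of the list against 1.18%. The amino acid response word was in 31.6% of 19 promoters of the ATF4 factor genes and 36.4% of 11 promoters of tRNA synthetase genes, against 3.08%. For amino acid synthesis it was in 16.7% of 12 promoters, and for amino acid transporters in 20% of 10. These are shares of letters in windows, with no test, and they do not show binding. The 6 genes were picked among called ones. Mcm6, Rfc3, Cdk1, Hmgcs1 and Asns fell, and Nupr1 rose.

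Transcripts that copy DNA and divide the cell made up most of the large falls. The 5 lists of DNA replication, chromatin duplication, E2F and MuvB factors, mitosis and DNA repair hold 242 distinct measured genes, of which 200 were lower and 9 higher. They supplied 112 of the 181 genes that fell at least 4-fold and 48 of the 66 that fell at least 8-fold. Of 58 replication genes, 52 were lower and 1 was higher, with a median log2 change of -1.98. Of 99 mitosis genes, 90 were lower and 0 higher, with a median of -2.29. The mean log2 level of the mitosis list was 7.51, 7.57 and 7.71 on the untreated arrays and 5.39 and 5.50 at 96 h.

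Origin licensing loads the MCM helicase on DNA in G1. In this role 16 of 19 genes were lower. Mcm6, a subunit of that helicase, had log2 levels of 10.36, 10.40 and 10.50 in untreated cells and of 5.85 and 5.76 at 96 h. The groups were far apart and the spread within each was small, with a change of -4.62 ± 0.08 (limma SE, adjusted p = 3.42e-09, n = 2 against 3). For Mcm6 most of the fall came late, since it was 0.52 lower at 48 h and fell by 4.10 ± 0.09 between 48 and 96 h (limma adjusted p = 2.85e-08). Cdc6, which brings MCM to the origin, went from 7.33, 7.54 and 7.59 to 3.26 and 3.57, which is within the range of markers of cell types that are absent. A fall that ends at this floor understates the fold. Orc3, an origin recognition subunit, was the 1 member higher (0.57, adjusted p = 0.0151), and without untreated replicate 2 or 96 h replicate 2 it was not called (adjusted p = 0.0520 and 0.153).

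At the replication fork 28 of 29 genes were lower. Lig1, the ligase that joins Okazaki fragments, went from 8.90, 9.02 and 8.92 to 5.60 and 5.21. Pole, the leading strand polymerase, went from 8.02, 8.19 and 7.95 to 4.54 and 4.61, and Clspn, a checkpoint mediator at the fork, from 7.24, 7.47 and 7.39 to 3.85 and 3.98. Rfc3, a subunit of the clamp loader, fell by 2.27 ± 0.22. In deoxynucleotide synthesis 8 of 10 genes were lower. Rrm2, the S-phase subunit of ribonucleotide reductase, had untreated values of 8.75, 8.95 and 9.31 and 96 h values of 5.66 and 5.71, a change of -3.32 ± 0.21 (limma adjusted p = 5.08e-06). Its partner Rrm1 changed less, by -2.26 ± 0.11, from 10.67, 10.82 and 11.07 to 8.57 and 8.62. Tk1, thymidine kinase of the salvage route, ended at 4.07 and 4.39 from 8.42, 8.48 and 8.46.

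Of 26 genes of chromatin duplication, 20 were lower and 1 higher. Uhrf1, which carries DNA methylation to the new strand, went from 9.62, 9.81 and 9.81 to 4.86 and 4.44. Asf1b and Chaf1b, chaperones that place histones on new DNA, changed by -4.30 ± 0.10 and -4.0 ± 0.12. Lmnb1, lamin B1 of the nuclear envelope, had values of 8.14, 8.27 and 8.55 and then of 4.13 and 4.97, and it fell by 3.77 ± 0.21 (limma adjusted p = 1.77e-06). Eed, a Polycomb subunit, rose by 0.85 ± 0.11.

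In mitosis all 19 cyclins and kinases, all 28 kinesins and spindle genes and all 16 condensin and cohesin genes were lower, as were 21 of 26 kinetochore and checkpoint genes and 6 of 10 genes of the anaphase-promoting complex. Ccna2, cyclin A2, had log2 levels of 9.55, 9.42 and 9.48 in untreated cells and of 4.63 and 4.77 at 96 h. Bub1, a checkpoint kinase, went from 8.74, 8.84 and 9.01 to 4.37 and 4.39, and Kif20a, a kinesin of cytokinesis, from 8.67, 8.82 and 8.98 to 4.93 and 4.75. Cdk1, the mitotic kinase, fell by 2.97 ± 0.19. Cenpa, the centromeric histone, was 0.47 lower at 48 h without passing the test (adjusted p = 0.125) and fell by 3.06 ± 0.17 from 48 to 96 h (limma adjusted p = 6.13e-06). Of the 99 mitosis genes, 49 were already lower than in untreated cells at 48 h (3.17% of all genes were), with a median of -0.62, and 83 were lower at 96 h than at 48 h (4.29% of all genes were).

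The E2F family split by member. E2F1 to E2F3 are known as activators and E2F7 and E2F8 as repressors that are themselves E2F targets. E2f8 went from 6.26, 6.59 and 6.25 to 3.79 and 3.77, and E2f7 from 7.39, 7.71 and 7.22 to 5.34 and 5.02. E2f1 changed by -1.61 ± 0.19 and E2f4 by -0.86 ± 0.13. E2f2, near the floor, was at -0.40 ± 0.12 and was not called without any 1 of the untreated arrays (adjusted p = 0.0660 to 0.0981) or without 96 h replicate 1 (0.275), while E2f3 (-0.34, adjusted p = 0.327), E2f5 (-0.10) and E2f6 (-0.04) did not pass. The pocket proteins that bind E2F moved apart. Rb1 rose from 7.05, 6.93 and 7.02 to 7.91 and 7.99, Rbl2 (p130) rose by 0.67 ± 0.16, and Rbl1 (p107) fell from 8.21, 8.41 and 8.34 to 6.51 and 6.81. Without 96 h replicate 2, Rbl2 was not called (adjusted p = 0.129) and 1 of the 3 higher members of the list remained so. Mybl2 and Foxm1, which drive G2 and M genes, changed by -3.19 ± 0.16 and -2.68 ± 0.21. Myc had values of 8.41, 8.49 and 8.70 and then of 8.75 and 8.48, and did not pass (0.08, limma adjusted p = 0.872).

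Among 14 cyclins and kinases of G1, 9 were lower (64.3% against 10.1% of all genes) and 2 higher (14.3% against 11.8%). Of 6 CDK inhibitors measured, 0 passed the test. Ccne1, cyclin E1, went from 7.91, 8.15 and 7.88 to 5.03 and 4.85, and Skp2, which targets the inhibitor p27 for degradation, from 7.29, 7.46 and 7.47 to 5.05 and 5.01. Ccnd2, cyclin D2, rose from 10.54, 10.65 and 10.60 to 11.44 and 11.31. Of 39 repair genes, 26 were lower (66.7% against 10.1% of all genes) and 4 higher (10.3%, near the 11.8% of all genes). Rad54l, Chek1 and Brca1 of homologous recombination and its checkpoint changed by -3.66 ± 0.18, -3.51 ± 0.12 and -3.48 ± 0.15. Ercc5, a nuclease of nucleotide excision repair, rose from 6.70, 6.74 and 6.52 to 8.36 and 8.47. The count of 4 higher was 2 without untreated replicate 1 or 3.

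**Figure D2:**
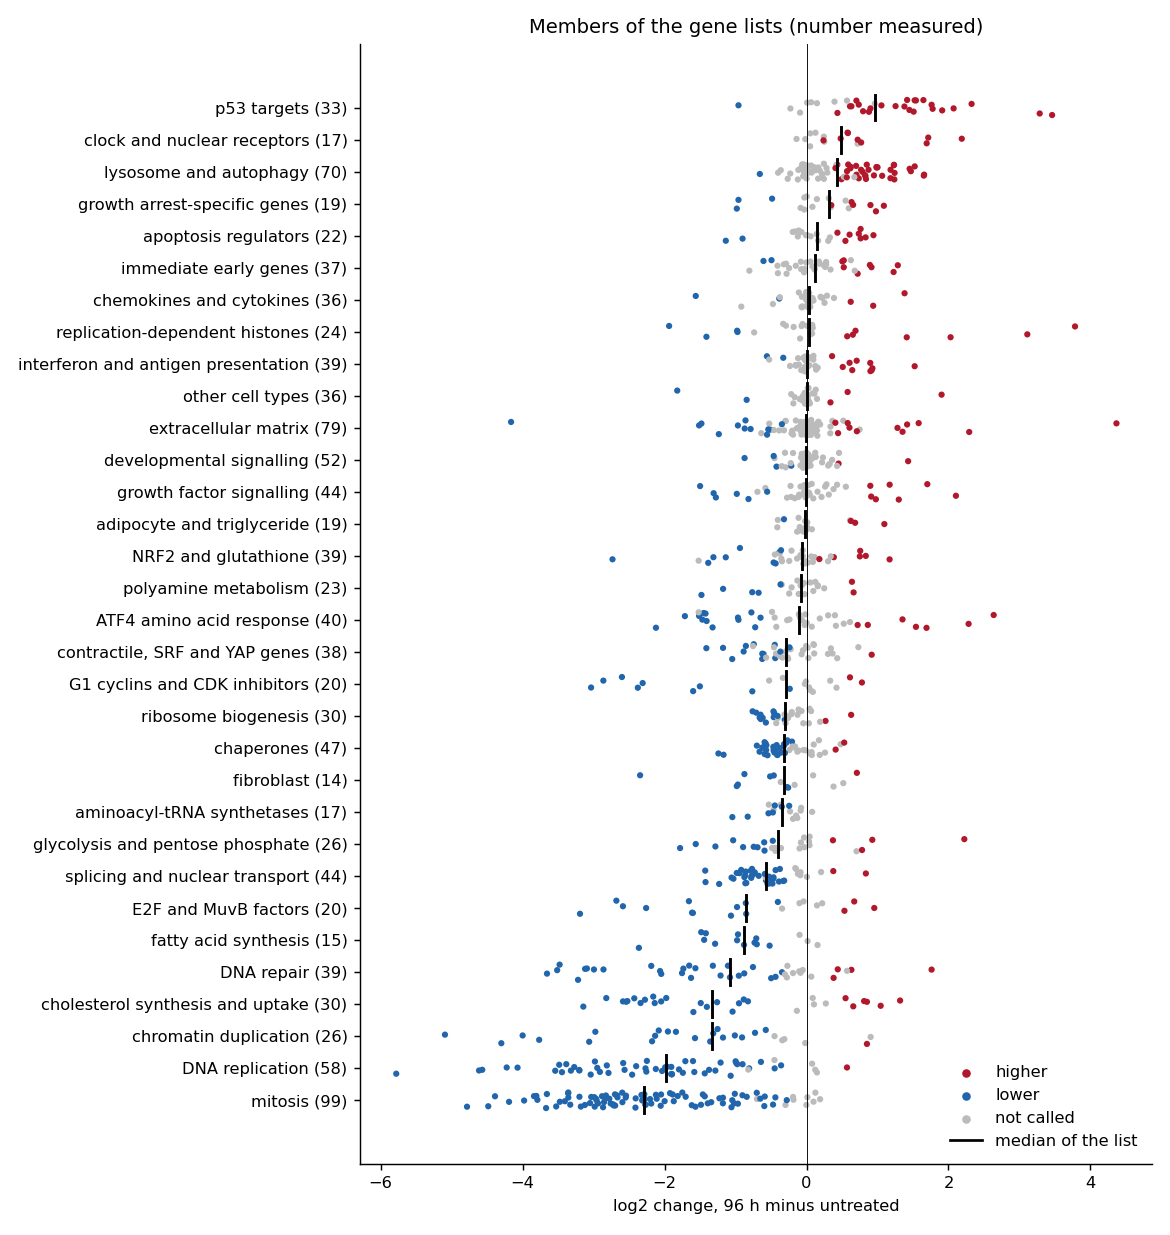
Rows are 32 gene lists with the number of measured members, and points are members by log2 change at 96 h, coloured by call. Black bars are medians. The lowest medians are those of mitosis (-2.29) and DNA replication (-1.98), and the highest that of p53 targets (0.96).

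Histone genes went against the S-phase genes in part. Of 51 histone genes in the list only 24 were measured, with a median untreated level of 5.065. Among these 24, 7 were higher (29.2% against 11.8% of all genes) and 4 lower (16.7% against 10.1%), with a median change of 0.03. H2bc4 had log2 levels of 5.54, 5.74 and 6.13 in untreated cells and of 9.54 and 9.64 at 96 h, a rise of 3.78 ± 0.23 (limma adjusted p = 3.67e-06). H1f2, a linker histone, went from 4.6, 4.51 and 4.86 to 7.83 and 7.71, and H4c9 from 6.12, 5.95 and 6.21 to 7.30 and 7.71. H2bc8 rose with arrays that lay apart, from 4.96, 5.06 and 5.09 to 6.39 and 7.74. H2az1, a variant histone that is not tied to replication although it stands in that list, fell by 1.94 ± 0.21, and H1f5 fell by 1.41 ± 0.33. The lower count was 1 without 96 h replicate 2, and H1f5 was not called without 96 h replicate 1 or 2 (adjusted p = 0.0634 and 0.0723). Histone genes are near-identical copies, so their probes may share signal.

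Of 33 measured p53 targets, 24 were higher and 1 lower at 96 h, with a median of 0.96, against 11.8% of all genes higher. p53 is a transcription factor that responds to DNA damage and other stress, and its own transcript and that of Cdkn1a were not measured under a single symbol. At 48 h 8 members were higher and 1 lower, and 14 rose further between 48 and 96 h. The mean log2 level of the list was 6.68, 6.59 and 6.69 on the untreated arrays and 7.80 and 7.68 at 96 h. The untreated and 96 h arrays did not overlap in these means.

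Cd80, a costimulatory ligand on antigen-presenting cells, led the p53 list, with values of 4.72, 4.73 and 4.72 in untreated cells and of 8.32 and 8.05 at 96 h (3.46 ± 0.13, limma adjusted p = 1.44e-07). Trp53inp1, a stress protein that binds p53, went from 6.91, 6.59 and 6.61 to 10.10 and 9.88. Eda2r, a death receptor family member, went from 7.61, 7.54 and 7.51 to 9.90 and 9.85, and Pltp, a phospholipid transfer protein, from 6.78, 6.52 and 6.79 to 8.75 and 8.78. Mdm2, the ligase that degrades p53, went from 8.85, 8.67 and 8.90 to 10.85 and 10.58, and its rise of 1.91 ± 0.15 was larger than that at 48 h by 1.32 ± 0.17 (limma adjusted p = 0.00140). Polk, a translesion polymerase, and Fas, a death receptor, rose by 1.78 ± 0.13 and 1.65 ± 0.20, and were chosen after their values were seen. Sesn1, a sestrin, was the 1 member lower, at 7.19, 6.99 and 7.37 and then 6.23 and 6.22. Its relative Sesn2, which is also a target of ATF4, rose by 1.54 ± 0.18. Among 22 apoptosis regulators 8 were higher (36.4% against 11.8% of all genes) and 2 lower (9.09% against 10.1%). Bid was up by 0.94 ± 0.15, Mcl1 up by 0.76 ± 0.08 and Bok down from 6.98, 7.18 and 7.31 to 6.20 and 5.83. The 8 became 5 without untreated replicate 1 or 2 or without 96 h replicate 1.

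**Figure D3:**
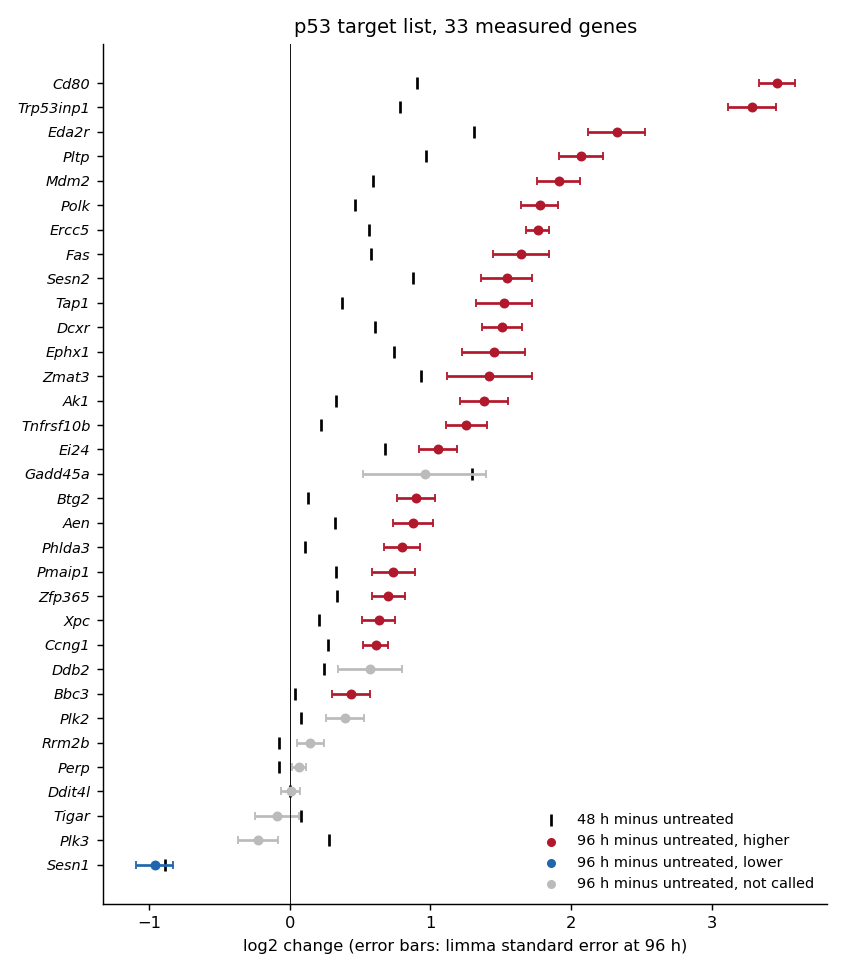
The 33 measured genes of the p53 target list are ordered by log2 change at 96 h against untreated cells, with limma standard errors as bars. Black ticks are the changes at 48 h. Of these genes 24 are higher (red), from Bbc3 (0.44) to Cd80 (3.46), and Sesn1 is lower (blue, -0.96).

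Ptprv is known as a p53-induced phosphatase gene of the mouse but stood in no list. It had values of 4.01, 3.97 and 3.82 in untreated cells and of 7.52 and 7.77 at 96 h, and nearly all of its rise of 3.71 ± 0.09 came after 48 h (3.42 ± 0.10, limma adjusted p = 3.42e-07). Ces2e, a carboxylesterase, behaved in the same way, from 3.74, 3.60 and 3.71 to 7.63 and 8.33, with 4.0 ± 0.21 of it after 48 h. Sulf2, a sulfatase that trims heparan sulfate at the cell surface, went from 4.96, 4.84 and 4.70 to 8.59 and 8.71 and was already 1.75 higher at 48 h (limma adjusted p = 0.000461). Gpnmb, a glycoprotein of lysosomes and the cell surface, went from 6.42, 5.75 and 6.0 to 9.37 and 9.62. Thsd7a, a thrombospondin-domain protein, rose by 2.88 ± 0.23 and Tmem150a by 2.72 ± 0.17. Gpnmb excepted, the rises of these 6 genes began at untreated means below 5, close to the levels of markers of absent cell types.

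Of 70 genes of lysosome and autophagy, 34 were higher (48.6% against 11.8% of all genes) and 1 lower (1.43% against 10.1%), with a median of 0.43. Lysosomal hydrolases degrade macromolecules, and autophagy delivers cytoplasm to them. Among hydrolases 17 of 32 were higher, among membrane proteins and regulators 9 of 15 and among autophagy genes 8 of 23. Hexa, a hexosaminidase subunit, had values of 8.76, 8.74 and 9.04 in untreated cells and of 10.54 and 10.47 at 96 h (1.66 ± 0.10, limma adjusted p = 4.50e-06). Tpp1, a peptidase, went from 8.64, 8.49 and 8.68 to 10.22 and 10.03, and Ctsd, cathepsin D, from 10.84, 10.77 and 11.03 to 12.14 and 12.10. The groups were apart in each of these by more than the spread within them. Mcoln1, the lysosomal calcium channel, rose by 1.47 ± 0.16, Ctns, the cystine exporter, by 1.65 ± 0.23, and Lamp2, a membrane glycoprotein, from 9.5, 9.37 and 9.66 to 10.63 and 10.75. Sqstm1 (p62), the autophagy receptor, went from 10.61, 10.55 and 10.69 to 12.04 and 12.09. Tfeb, the factor that drives these genes, had values of 4.63, 4.56 and 4.59 and then of 4.76 and 4.6 and did not pass (0.09, adjusted p = 0.468). Wipi1 was the 1 lower member (-0.66, adjusted p = 0.0325) and was not called in any fit that left out 1 untreated or 96 h array (adjusted p between 0.0695 and 0.177).

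Genes of sterol synthesis fell almost without exception. Cholesterol is built from acetyl-CoA through mevalonate and squalene, and SREBP2 drives most of its enzymes. From mevalonate to squalene 7 of 8 genes were lower and 1 higher (median -2.22), and after squalene 10 of 10 were lower (median -1.45). Idi1, isopentenyl diphosphate isomerase, had values of 10.72, 10.63 and 10.39 in untreated cells and of 7.27 and 7.60 at 96 h (-3.15 ± 0.12, limma adjusted p = 2.03e-07). Hmgcs1, HMG-CoA synthase, went from 10.38, 10.21 and 10.53 to 7.39 and 7.71, and Mvk, mevalonate kinase, from 8.37, 8.08 and 7.87 to 5.62 and 5.92. Past squalene, Nsdhl went from 9.44, 9.30 and 8.94 to 6.51 and 6.77, Cyp51 from 10.53, 10.45 and 10.60 to 7.82 and 8.19, and Sqle from 10.27, 10.11 and 10.25 to 8.04 and 8.28. Ggps1, which leads off to geranylgeranyl lipids, was the 1 member higher (0.81 ± 0.12).

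Most sterol genes were low by 48 h. At that time 7 of the 8 mevalonate genes and 9 of the 10 later ones were lower than in untreated cells, and 5 and 3 fell further by 96 h. Of the 58 replication genes 30 were lower at 48 h and 47 fell further, and the difference in timing between these lists was not tested. Nsdhl differed from untreated cells by -2.28 at 48 h and changed by -0.30 ± 0.19 after that (limma adjusted p = 0.428), whereas Idi1 fell by a further 1.18 ± 0.13 (adjusted p = 0.000655). Among 12 genes of regulation, uptake and export, 3 were lower and 5 higher. Insig1, which retains SREBP in the endoplasmic reticulum and is its target, went from 10.77, 10.61 and 10.60 to 7.95 and 8.50, Stard4, a sterol carrier, from 8.38, 8.32 and 8.86 to 5.83 and 6.12, and Srebf2 from 9.72, 9.69 and 9.40 to 8.46 and 8.66. Abca1, the cholesterol exporter, and Npc1, which moves cholesterol out of lysosomes, rose by 1.32 ± 0.13 and 1.04 ± 0.15. Of 15 genes of fatty acid synthesis, 12 were lower and 0 higher. Elovl6, an elongase, changed by -2.36 ± 0.14, Fasn, fatty acid synthase, by -1.42 ± 0.17, and Scd2, a desaturase, by -1.48 ± 0.20. Srebf1 had values of 6.67, 6.61 and 6.67 and then of 6.90 and 6.61 and did not pass (adjusted p = 0.688).

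Within the ATF4 list the called factors and the called enzymes went opposite ways. ATF4 is a factor whose translation rises when amino acids are short or the endoplasmic reticulum is stressed, and it drives genes of amino acid synthesis, transport and tRNA charging. Of 16 factors and effectors 7 were higher and 0 lower, and 9 did not pass, among them Trib3 (-0.09) and Chac1 (-0.49). Of 13 genes of amino acid synthesis and one-carbon metabolism 0 were higher and 10 lower. Atf4 itself had values of 8.93, 9.09 and 8.80 in untreated cells and of 10.33 and 10.25 at 96 h (1.35 ± 0.08, limma adjusted p = 4.09e-06). Ddit3 (CHOP) went from 5.78, 5.54 and 5.89 to 8.55 and 8.20, Atf5 from 6.89, 7.26 and 7.41 to 9.72 and 9.22, and Nupr1, a stress-induced nuclear protein, from 7.08, 7.02 and 7.55 to 8.94 and 8.88.

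On the enzyme side of the ATF4 list, Psat1 of serine synthesis had values of 10.74, 10.73 and 11.12 and then of 9.28 and 9.51 (-1.47 ± 0.15, limma adjusted p = 9.45e-05). Shmt2, a mitochondrial serine hydroxymethyltransferase, went from 9.53, 9.56 and 9.81 to 8.21 and 8.21, and Asns, asparagine synthetase, from 11.43, 11.52 and 11.76 to 10.81 and 10.88; Shmt2 was chosen after its values were seen. Cth, which makes cysteine, and Mthfd2, a mitochondrial folate enzyme, changed by -2.12 ± 0.46 and -1.71 ± 0.34 with a wider spread. Untreated replicate 3 stood above the other untreated arrays in Cth (7.96 against 7.03 and 7.05) and Mthfd2 (8.62 against 7.73 and 7.86), and in the mean of the whole list (7.95 against 7.62 and 7.64). Without 96 h replicate 1 neither Cth nor Mthfd2 was called (adjusted p = 0.0924 and 0.0571), and 6 of the 13 enzyme genes were lower in place of 10.

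Enzymes and factors of the ATF4 list also differed in time. At 48 h the enzyme genes had a median of 0.27 and 0 of 13 passed in either direction, while the factors had a median of 0.70 with 7 of 16 higher. From 48 to 96 h, 11 of the 13 enzyme genes fell (4.29% of all genes did). Psat1 differed from untreated cells by 0.00 at 48 h and fell by 1.47 ± 0.16 from there (limma adjusted p = 0.000522), and Asns fell by 1.05 ± 0.16 (adjusted p = 0.00329). Ddit3 rose by a further 1.35 ± 0.22 in the same interval (adjusted p = 0.00552), and Atf4 by 0.33 ± 0.09 without passing (adjusted p = 0.0576). Of the 16 factors and effectors, 3 rose and 1 fell in that interval (4.35% and 4.29% of all genes did). Chac1, counted among the effectors, changed by -1.59 (limma adjusted p = 0.00703), the same way as the enzymes. Of 11 amino acid transporters 3 were lower, Slc6a9, Slc1a5 and Slc7a5, and 1 was lower without untreated replicate 3 or without either 96 h array. Slc6a9 was then not called (adjusted p = 0.0516 to 0.119), nor was Slc7a5 (0.0838 to 0.145), which was also lost without untreated replicate 2 (0.0870). Of 17 cytosolic tRNA synthetases 7 were lower and 0 higher (3 without 96 h replicate 1), with Vars at 9.20, 9.18 and 9.24 and then at 8.26 and 8.06. In all, 14 genes of these lists held the amino acid response word in a promoter. Of these, 2 were higher (Atf3 and Nupr1), 3 lower (Asns, Iars and Tars) and 9 did not pass. Over all genes tested 11.8% were higher and 10.1% lower, and whether the 14 genes differ from these shares was not tested. Without 96 h replicate 1, Atf3 and Iars were not called (adjusted p = 0.0551 and 0.0608). The printed windows of Nupr1 and Asns thus carry the same word before genes that moved apart.

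**Figure D4:**
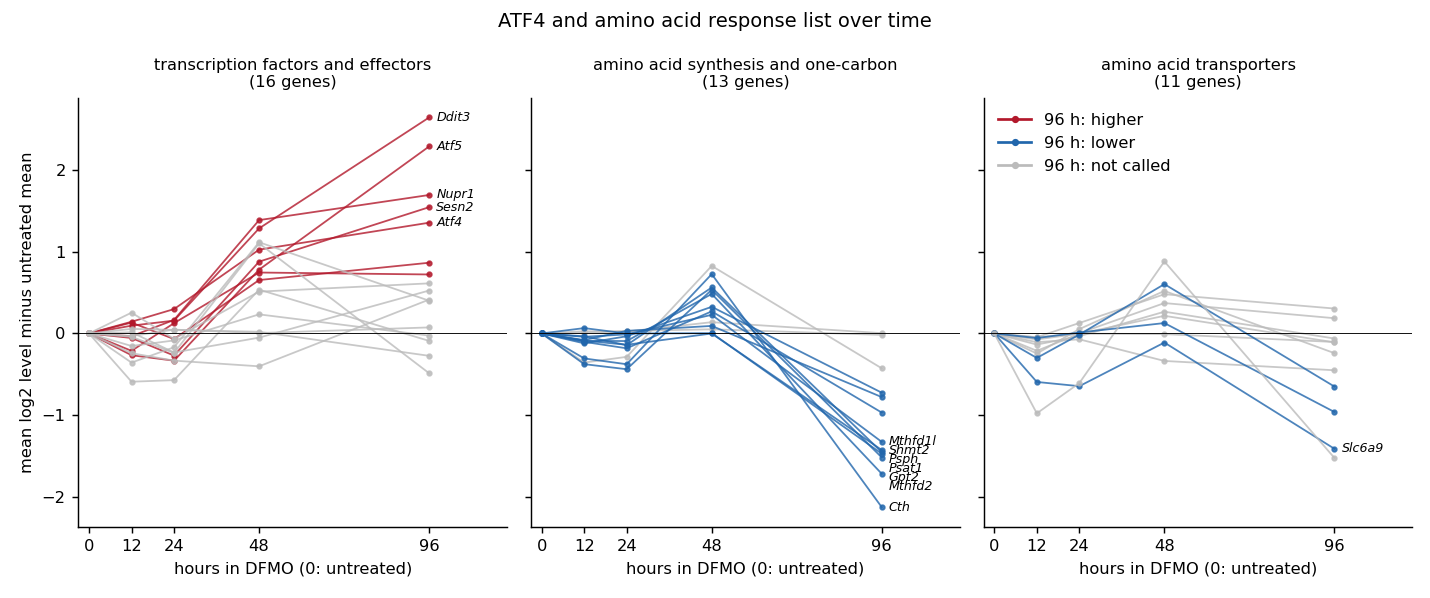
Lines are genes of the ATF4 list, plotted as the mean log2 level at each time minus the untreated mean (0 h), in panels for factors and effectors (16 genes), amino acid synthesis (13) and transporters (11), coloured by the call at 96 h. Factors are above 0 at 48 h and 96 h for the 7 red genes, and the 10 blue enzyme genes are below 0 at 96 h.

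The polyamine list had a median log2 change of -0.08. Of 23 measured members 2 were higher and 5 lower, shares of 8.70% and 21.7% against 11.8% and 10.1% of all genes. Odc1, which encodes the target of the drug, had values of 9.61, 9.73 and 9.79 in untreated cells and of 9.08 and 8.98 at 96 h. Oaz2, an antizyme that sends the decarboxylase for degradation, had 5.89, 5.68 and 6.02 and then 4.54 and 4.83, and Smox, spermine oxidase, 6.33, 6.25 and 5.93 and then 4.61 and 4.76. Azin2, an antizyme inhibitor, was at 5.13, 5.02 and 4.81 and then at 5.79 and 5.51, and Atp13a2, a lysosomal polyamine exporter, at 4.42, 4.36 and 4.28 and then at 5.13 and 4.85. For the hypusine route, Eif5a was at 11.80, 11.77 and 11.73 and then at 11.49 and 11.31, and Dohh, the hydroxylase that completes hypusine, at 7.81, 7.90 and 7.85 and then at 7.13 and 7.04. Arrays of the groups did not overlap in any of these 7 genes. That held for all 4372 called genes and for 44.4% of genes tested, so it adds nothing to the calls.

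The other 16 polyamine genes did not pass. Srm, spermidine synthase, had values of 9.78, 10.00 and 9.95 and then of 10.08 and 9.69, so its groups overlapped. Azin1 had values of 10.00, 10.12 and 10.16 and then of 10.17 and 10.20, so its groups lay close without overlapping. Sat1, the acetyltransferase that starts polyamine export, was at -0.35 (adjusted p = 0.105), Slc18b1, a vesicular transporter, at -0.36 (0.0552), and Sat2 at 0.16. Dhps (0.16) and Eif5a2 (-0.21) of the hypusine route, the transport genes Atp13a3 (0.25), Slc3a2 (-0.06), Slc12a8 (-0.11), Cav1 (-0.25) and Gpc1 (-0.13), and Mtap (0.05), Oaz3 (-0.08), Arg1 (-0.04) and Arg2 (0.12) lay between -0.25 and 0.25. Oaz3, Arg1 and Arg2 were near the floor in both groups. Without 96 h replicate 1 or 2, 3 members were lower in place of 5. Odc1 (adjusted p = 0.0569 and 0.0945) and Dohh (0.118 and 0.164) were then not called, and Dohh also not without any 1 of the untreated arrays (0.0711 to 0.0878).

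**Figure D5:**
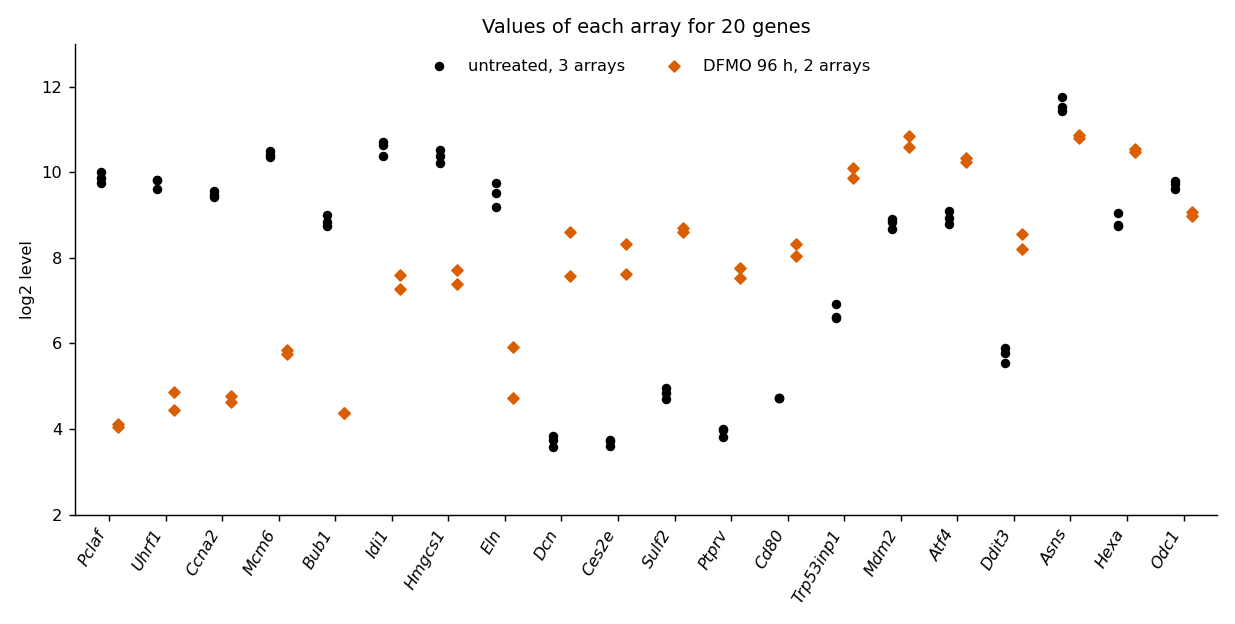
Log2 levels of 20 genes on the 3 untreated arrays (black circles) and the 2 arrays at 96 h (orange diamonds). Levels of different genes are not comparable on this scale. The groups are apart for every gene shown, as for all called genes, with changes of -5.78 for Pclaf and -0.68 for Odc1. The 2 arrays at 96 h lie furthest apart for Eln (4.72 and 5.92).

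Of 79 matrix genes 11 were higher (13.9%) and 12 lower (15.2%), near the 11.8% and 10.1% of all genes, with a median of -0.01. Dcn, decorin, a proteoglycan that binds collagen and TGF-beta, had values of 3.83, 3.59 and 3.75 in untreated cells and of 7.57 and 8.60 at 96 h, the largest rise of all genes (4.37 ± 0.31, limma adjusted p = 1.05e-05). Eln, elastin, went from 9.75, 9.52 and 9.19 to 4.72 and 5.92. Prelp, another leucine-rich proteoglycan, rose by 2.29 ± 0.47, Col12a1 rose from 6.13, 6.29 and 5.71 to 7.81 and 7.43, and Col6a3 fell from 10.25, 10.34 and 9.93 to 8.69 and 8.70. Thbs1, thrombospondin, fell by 1.51 ± 0.32, and Mmp14, a membrane protease, rose by 1.42 ± 0.24. Without 96 h replicate 2, 4 members were lower in place of 12, and Prelp and Thbs1 were not called (adjusted p = 0.0616 and 0.0744). Among 14 fibroblast markers 8 were lower and 1 higher (5 lower without untreated replicate 1 or 2, and 4 and 3 without 96 h replicate 1 or 2). Thy1, a surface glycoprotein, went from 8.26, 8.25 and 8.44 to 5.95 and 5.99, and Fn1, fibronectin, rose from 11.69, 11.72 and 11.64 to 12.38 and 12.40.

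The 2 arrays at 96 h disagreed most for contractile, SRF and YAP genes. Their mean level was 8.01, 8.14 and 8.16 on the untreated arrays, 8.07 at 96 h in replicate 1 and 7.59 in replicate 2. Of 38 members 13 were lower, but 4 without 96 h replicate 2 and 8 without untreated replicate 2, and 1 was higher, but 4 without 96 h replicate 2. Ccn2, a YAP target and matricellular protein, had values of 9.27, 9.82 and 10.02 and then of 9.15 and 7.43, and without 96 h replicate 2 it was not called (adjusted p = 0.263), nor without untreated replicate 2 or 3 (0.0971 and 0.102). Csrp1, an actin-associated protein, went from 10.01, 9.98 and 10.07 to 9.30 and 8.64. Srf (-0.26, adjusted p = 0.317) and Yap1 (-0.07, adjusted p = 0.585) did not pass.

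Smaller groups leaned one way. Splicing and nuclear transport had 34 of 44 members lower and 2 higher with a median of -0.57, for example Nup107, a nuclear pore scaffold protein, from 8.20, 8.15 and 8.45 to 6.83 and 6.86, and Hnrnpd from 10.51, 10.47 and 10.50 to 9.65 and 9.63. Chaperones had 27 of 47 lower (57.4% against 10.1% of all genes) and 2 higher, with fewer lower without 96 h replicate 1 or 2. Pdia6, a disulfide isomerase, was at 11.29, 11.27 and 11.51 and then at 10.15 and 10.23. Ribosome biogenesis had 12 of 30 lower (40% against 10.1%) and 2 higher, with fewer lower without 96 h replicate 2. Mybbp1a was down by 0.76 ± 0.09. Of 17 genes of the clock and nuclear receptors 9 were higher and 0 lower (5 and 4 without 96 h replicate 1 or 2). Bhlhe41, a clock repressor, went from 5.70, 5.24 and 5.72 to 7.91 and 7.57, Nr1d1 (REV-ERB alpha) from 7.23, 7.85 and 7.80 to 9.52 and 9.16, and Dbp from 5.24, 5.32 and 5.42 to 7.18 and 6.86. None of the 17 was called at 48 h by limma, and 5 rose between 48 and 96 h. Clock transcripts vary over the day, and the sources used here do not state the hour of harvest.

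In metabolism, glycolysis and the pentose phosphate route had 10 of 26 genes lower (38.5% against 10.1% of all genes) and 4 higher (15.4% against 11.8%). Pfkl, the liver phosphofructokinase, went from 8.92, 8.81 and 8.71 to 7.14 and 6.92, Tkt, transketolase, from 9.69, 9.60 and 9.57 to 8.08 and 8.04, and Txnip, an inhibitor of glucose uptake, rose from 7.68, 7.60 and 7.80 to 9.68 and 10.16. In the glycolysis part, 8 were lower, and 5 without 96 h replicate 2. The NRF2 targets, genes of the antioxidant response, moved both ways. Of 23 measured, 8 were lower (34.8% against 10.1% of all genes) and 5 higher (21.7% against 11.8%). Nqo1, a quinone reductase, had values of 8.90, 8.73 and 9.33 and then of 6.31 and 6.20, and Gsr and Gclm of glutathione metabolism changed by -1.39 ± 0.16 and -1.31 ± 0.15. Hmox1, heme oxygenase, rose from 8.30, 8.57 and 8.46 to 9.85 and 9.37, and Nfe2l2, which encodes NRF2, rose from 8.20, 8.22 and 8.30 to 9.01 and 9.13. The 8 became 5 without untreated replicate 1 or either 96 h array.

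Growth factor genes were called about as often as all genes, with 7 of 44 higher (15.9% against 11.8%) and 6 lower (13.6% against 10.1%). They included Igf2r, the receptor that clears IGF2 and sorts lysosomal enzymes, at 5.63, 6.0 and 6.07 and then at 7.90 and 8.10. Fgfr1 rose by 1.3 ± 0.19 and Pdgfa by 1.17 ± 0.14, while Hbegf and Fgf7 changed by -1.5 ± 0.26 and -1.28 ± 0.13. Of 39 interferon and antigen presentation genes 10 were higher (25.6% against 11.8% of all genes) and 2 lower (5.13% against 10.1%). Fewer were higher without 96 h replicate 2, and fewer were lower in every fit that left out 1 array. Tap1, the peptide transporter, which also counts among p53 targets, went from 5.94, 5.73 and 6.03 to 7.67 and 7.18, and B2m from 11.30, 11.16 and 11.30 to 12.11 and 12.25. Of 36 chemokine and cytokine genes 3 were higher (8.33%) and 2 lower (5.56%), below the shares of all genes, and 1 was lower without untreated replicate 1 or 2 or either 96 h array. Cxcl12 rose from 5.06, 5.10 and 5.09 to 6.39 and 6.54. Of 37 immediate early genes 8 were higher (21.6% against 11.8% of all genes) and 2 lower (5.41% against 10.1%). Without untreated replicate 1, 5 were higher, and fewer again without 96 h replicate 1. Jun was up from 7.34, 7.55 and 7.58 to 8.44 and 8.38. Developmental signalling had 2 of 52 higher (3.85%) and 4 lower (7.69%), below the shares of all genes. Without 1 array, 1 was higher (untreated replicate 2 or 3 or 96 h replicate 1 left out), and 2 and 1 were lower without untreated replicate 2 and 96 h replicate 1. Adipocyte genes had 3 of 19 higher (15.8%) and 1 lower (5.26%), and 0 lower without either 96 h array. Notch1, a receptor, rose by 1.43 ± 0.23, and Plin2, a lipid droplet coat protein, by 1.10 ± 0.18. Of 19 growth arrest-specific genes 6 were higher (31.6% against 11.8% of all genes) and 3 lower (15.8% against 10.1%, and fewer without either 96 h array). Foxo3, a factor of quiescence, was up from 6.75, 6.72 and 6.62 to 7.95 and 7.62. Gas5, a noncoding RNA, rose by 0.98 ± 0.12 in its brightest cluster, and the mean of its clusters changed by -0.02.

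Few genes with a microRNA symbol passed, 11 of 300 (3.67% against 21.9% of all genes), with 5 higher and 6 lower. The 6 lower include the host transcript Mir17hg, and 10 of the 11 have a mature sequence. The 11 were chosen after their values were seen. They include members of the Mir17 cluster on chromosome 14, whose products act on cell cycle and apoptosis genes and whose host gene is a known E2F and MYC target. The mature RefSeq sequences (GRCm38.p6) of the 3 called members are shown with the seed, bases 2 to 8, in capitals.
mmu-miR-18a-5p: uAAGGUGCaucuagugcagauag
mmu-miR-19a-3p: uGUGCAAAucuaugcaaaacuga
mmu-miR-20a-5p: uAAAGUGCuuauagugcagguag
The 3 seeds differ, so these are members of 3 seed families. The array reads hairpin and precursor RNA as well, so the values are not levels of the mature forms. Mir18 had log2 levels of 5.73, 5.53 and 6.15 in untreated cells and of 4.17 and 4.73 at 96 h (-1.36 ± 0.27, limma adjusted p = 0.00504). Mir20a went from 5.25, 5.44 and 5.75 to 4.28 and 4.21 (-1.24 ± 0.24, adjusted p = 0.00459), and Mir19a from 4.85, 5.12 and 5.73 to 4.26 and 4.19 (-1.01 ± 0.24, adjusted p = 0.0135). Mir17 (-0.55, adjusted p = 0.0942) and Mir19b-1 (-0.94, adjusted p = 0.115) did not pass, and the host transcript Mir17hg was lower by 0.36 (adjusted p = 0.0259) at a level near the floor. Within the cluster untreated replicate 3 was the highest array for each of the 5 members tested. Without 96 h replicate 1 neither Mir18 (adjusted p = 0.0604) nor Mir19a (0.0662) was called, and Mir19a also not without 96 h replicate 2 (0.0859), while Mir20a was called in every fit that left out 1 array.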

How the data were processed

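Labelled cDNA from total RNA of G1-sorted cells was hybridised to whole-transcript mouse arrays. The authors deposited log2 values per transcript cluster. Per the submitters' processing notes the tools were RMA and Partek, whose versions, like the genome build of the array design, are not stated in what was used here. RMA normalises by quantiles and leaves background in the values, so a change of all transcripts one way would be hidden and folds near the floor are too small. A fold is that of the log2 values. Of 35399 clusters, 21789 had 1 symbol in the platform annotation. A gene was the cluster with the highest mean (19938 genes), and neither the 1621 clusters with several symbols nor the 11989 without one entered the gene tests.

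The gene tests came from limma 3.58.1 (R 4.3.3), with a mean for each of the 5 groups and the spread pooled over the 12 arrays, and p-values were adjusted by Benjamini and Hochberg over all genes. All p-values printed with a gene are from this fit, are two-sided, and called genes had an adjusted p under 0.05. SE is limma's. The code was tested on simulated data. The arrays are called biological replicates in the labels, and their number (3 and 2) limits the precision. Whether equal numbers mark a shared culture is not stated, and a fit with the number as a block is given with the alternatives. The 32 gene lists (1152 of 1261 members measured, some in more than 1 list) and the members were chosen with earlier results of these data known, so list counts are descriptions. Named genes were the 12 largest rises and falls, up to 5 called members of each list role with the largest change and up to 2 that moved against it, all polyamine genes, the factors that give lists their names, and genes called in opposite directions at 48 h and 96 h. Cdk1, Rfc3 and Asns were named by the rule for printed promoters, and cell type markers by their list. Other fits used only the groups compared, a replicate block, other scalings, a filter on low values, all clusters, array weights or a trend, or left out 1 array. Python 3.11.15, pandas 2.3.3 and matplotlib 3.10.9 read sequences and drew figures.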

Additional observations from a re-analysis of the deposited data

Results flagged for a closer look

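Of all genes, 2 were called in opposite directions at 48 h and 96 h against the same untreated arrays. Mylip, a ubiquitin ligase that degrades the LDL receptor, had log2 levels of 5.62, 5.68 and 5.44 in untreated cells, of 4.82 and 4.94 at 48 h and of 6.08 and 6.18 at 96 h. It was 0.71 lower at 48 h (limma adjusted p = 0.0270) and 0.55 higher at 96 h (adjusted p = 0.0278), and the direct test between these times gave 1.25 (adjusted p = 0.00169). The 96 h call for Mylip was lost without untreated replicate 1 or 3 (adjusted p = 0.0578 and 0.0817) and without 96 h replicate 1 or 2 (0.0896 and 0.159). Wars, the tryptophanyl-tRNA synthetase, went from 9.31, 9.38 and 9.27 to 9.66 and 9.57 and then to 9.08 and 9.08. The change from 48 h to 96 h was -0.54 (limma adjusted p = 0.00201). The 96 h call for Wars was lost without untreated replicate 1 or 2 (adjusted p = 0.0596 and 0.0837), without 96 h replicate 1 or 2 (0.116 and 0.117), with quantile normalisation (0.0644), with the filter on low values (0.0721) and with a trend and robust fit (0.127).

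Transcript clusters outside the gene tests also differed. Among 11989 clusters with no symbol in the annotation, 790 were called at 96 h (6.59%), 371 higher and 419 lower. Among 1621 clusters with several symbols, 280 were called (17.3%), 134 higher and 146 lower. In the same fit of all clusters, 3890 of the 19938 that stand for a tested gene were called (19.5%).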

How the results depend on the processing

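Over the 14 alternatives the count of genes called at 96 h lay between 3039 (without 96 h replicate 1) and 4799 (array weights). Leaving out 1 array gave 3039 to 4002 called genes, 1560 to 2249 higher and 1374 to 1784 lower, and 748 to 1762 genes between 96 h and 48 h (748 and 1060 without 48 h replicate 1 or 2, 1007 and 993 without 96 h replicate 1 or 2). With only 1 array left at 96 h, that array is assumed to vary like the other groups. No gene called in the main analysis was called in the other direction under an alternative. Of 311 named genes called, 230 were called under every one of the 14 that tested them. The filter on low values tested 7064 genes, and a named gene it left out was not counted as lost. For Gas5 the mean of all its clusters reversed the sign (-0.0238). With the replicate number as a block 4778 genes were called (2659 higher and 2119 lower). Deviations from the group means correlated at -0.136 for the pair numbered 1 and -0.0798 for the pair numbered 2. With 2 arrays at 96 h their deviations mirror each other, so these values cannot decide whether equal numbers mark a shared culture. The main fit did not take the arrays as paired. Of 2464 list counts under alternatives, 281 moved by over 1.5 times. Signal near background limits what can be seen, since a fall that ends there understates the fold.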
